A study of Mus musculus with 12 samples.

Results

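The pancreatic acinar cell packs its digestive enzymes into zymogen granules together with a set of proteins that are not proteases, and 10 genes for such granule and secreted proteins were followed here in β-catenin KO and wildtype pancreata: Zg16, Gp2, Cuzd1, Sycn, Dmbt1, Rnase1, Reg1, Reg2, Reg3b and Reg3g. Every probe set whose only gene symbol in the array's annotation is a member was taken, which gave 14 probe sets of the 45037 examined. The 10 members are among 18193 genes with such a probe set. Zg16 has 3, Sycn and Reg3b have 2 each, and each of the other 7 genes has 1.

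The data are 12 Affymetrix MOE430 2.0 arrays, each from 1 embryonic pancreas. KO pancreata carried Pdx1Cre/+; β-catenin flox/flox, in which a Pdx1-cre transgene removes the floxed stretch of the β-catenin gene from the cells of the pancreatic epithelium. Parents of all embryos were Pdx1Cre/+; β-catenin flox/+ mice, and the labels call the controls wild type without saying which Cre and flox alleles they carried. At E14.5 there were 2 wildtype pancreata (WT_522B, WT_522C) and 4 KO (KO_540C, KO_540G, KO_615A, KO_615B). At E16.5 there were 2 wildtype (WT_622A, WT_628G) and 4 KO (KO_541J, KO_541L, KO_591C, KO_591D). The study's methods place recombination by the transgene in the developing pancreas, and the study regards Cre expression as likely mosaic, so a KO pancreas can keep epithelial cells with β-catenin. Each deposited value is the signal of a probe set over its average in the 2 wildtype pancreata of that day. A ratio of 1 is therefore the wildtype average, and the values tell neither how abundant a transcript was nor how it developed between the days. In whole pancreata, fewer acinar cells and less RNA per acinar cell cannot be told apart.

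As background, zymogen granules form at the trans-Golgi, where enzyme precursors condense with lectin-like and matrix proteins, and are stored under the apical membrane until a secretagogue triggers exocytosis. Zg16 is a lectin-like protein bound to the inner face of the granule membrane, Gp2 is the major glycoprotein of that membrane, syncollin (Sycn) is a small granule protein that associates with it, and Cuzd1 is a granule membrane protein with CUB and zona pellucida domains. Dmbt1 is a secreted scavenger receptor cysteine-rich glycoprotein, and Rnase1 is the pancreatic ribonuclease. The Reg genes encode small secreted C-type lectins. Reg1 and Reg2 are made by acinar cells, and Reg3b and Reg3g are antibacterial lectins of the gut that are known to be induced in an injured or inflamed pancreas.

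At E16.5 8 of the 10 genes were lower in the KO, and 7 of them were called: Zg16, Gp2, Cuzd1, Sycn, Dmbt1, Rnase1 and Reg1. Over these 7 the KO mean ratio ran from 0.0122 ± 0.00238 (SD, n = 4) on a Zg16 probe set to 0.477 ± 0.0423 for Gp2. Reg2, Reg3b and Reg3g were not called. By limma with Benjamini-Hochberg adjustment over all probe sets, 10 of the 14 member probe sets passed 0.05, all of them lower, where 1.82% of all probe sets were called lower and 2.62% in either direction. All 4 KO lay below both wildtype pancreata on 11 member probe sets, against 11.1% of all probe sets. The median log2 fold change over the 10 genes was -2.66, while that over all probe sets was 0.027. The count of 10 depended on the fit and the scaling. With a trended and robust prior variance it was 1, the first Zg16 probe set. The trend there ran over the mean log2 ratio, which the KO effect itself moves, as the ratios hold no abundance. With the E16.5 arrays fitted alone the count was 4, the 3 Zg16 probe sets and Gp2. It was 4 with quantile normalization and 5 on ratios without log. By the methods' t-test after adjustment it was 0, and 0 of all probe sets were called. That test was run here on each day over all probe sets, without the filter by fold that the study applied first. It is therefore not the study's whole procedure. Without adjustment the methods' t-test passed 10, which were 9 of those called by limma, all but Sycn 1434803_a_at, and Reg2. In the fit reported, limma p values rest on 1 spread per probe set over all 4 groups and both days, moderated towards that of all probe sets. With 2 wildtype pancreata per day this spread comes from few embryos. Values of each day also enter the tests of the other.

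At E14.5 no member probe set was called by limma, against 0.0111% of all probe sets, and none had an unadjusted p under 0.05, where 6.86% of all probe sets did. The methods' t-test without adjustment passed 3, namely the Zg16 probe sets 1428359_s_at and 1434137_x_at and Rnase1, and 0 after adjustment. The median log2 fold change over the 10 genes was 0.07. All 4 KO lay above both wildtype pancreata on 3 member probe sets and below both on 1, against 8.17% and 8.06% of all probe sets. The change from E14.5 to E16.5 in the KO effect was tested as the difference between the effects, and 5 member probe sets passed, all lower at E16.5, against 0.273% of all probe sets called lower and 0.349% in either direction. They were the 3 of Zg16, that of Cuzd1 and the second of Sycn.

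**Figure D1:**
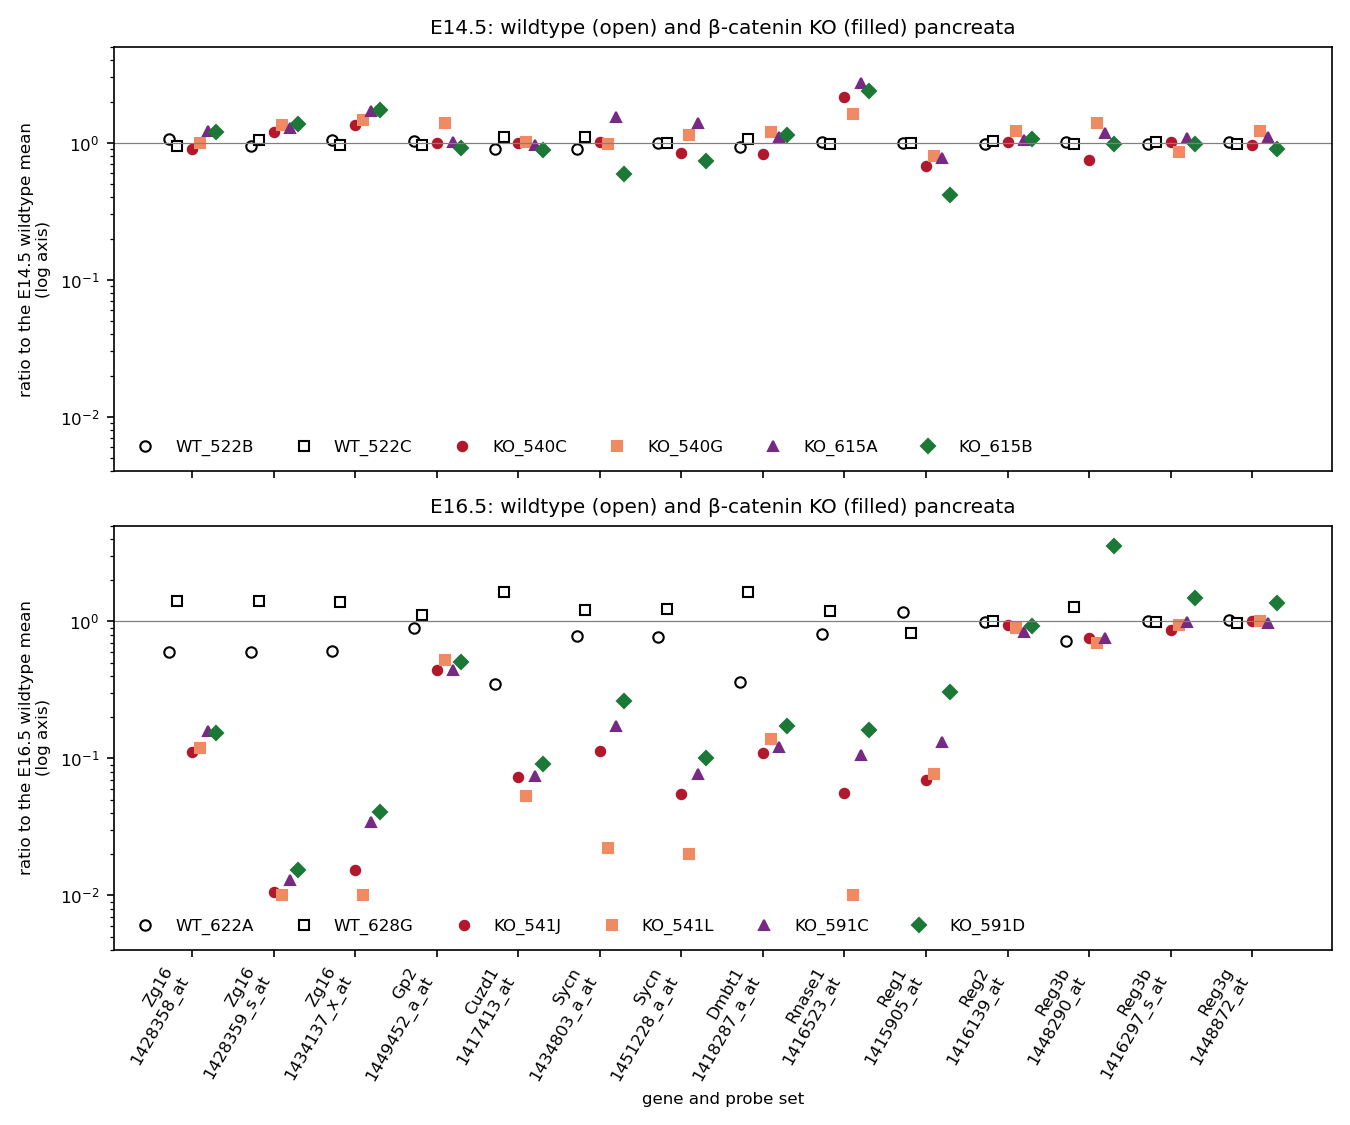
Ratio to the day's wildtype mean (log axis) of each member probe set in every pancreas, E14.5 above and E16.5 below, wildtype as open symbols and KO as filled ones, 1 symbol per embryo. At E16.5 the KO values of Zg16, Gp2, Cuzd1, Sycn, Dmbt1, Rnase1, Reg1 and, without a call, Reg2 lie below both wildtype values. Those of Reg3b and Reg3g do not.

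Zg16, the granule lectin, held the deepest fall of any probe set on the array. On the probe set 1428358_at, chosen for the gene by its name alone, the E16.5 ratios were 0.599 and 1.4 in WT_622A and WT_628G, and 0.111, 0.119, 0.159 and 0.154 in KO_541J, KO_541L, KO_591C and KO_591D. The KO were all below both wildtype pancreata, and the lower wildtype value was 3.76 times the highest KO value. Zg16 fell 6.84-fold on this probe set, a log2 fold change of -2.77 (SE 0.28, limma adjusted p = 0.000604). With quantile normalization it was -1.7 and not called (limma adjusted p = 0.347).

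The other two Zg16 probe sets went further down in the same arrays. On 1428359_s_at the KO ratios were 0.0106, 0.01, 0.0129 and 0.0152, a fall of 76.3-fold (log2 -6.25, SE 0.27, limma adjusted p = 1.11e-06), which ranked 1 of 45037 probe sets both by depth and by p. On 1434137_x_at the KO ratios were 0.0153, 0.01, 0.0346 and 0.0409, a fall of 42.6-fold that ranked 2 by depth (log2 -5.41, SE 0.49, limma adjusted p = 0.000395). The 3 probe sets ordered the wildtype pair alike, with WT_622A between 0.599 and 0.605, but they did not give a common depth: the 95% interval of the first, -3.38 to -2.17, does not overlap those of the other two, -6.83 to -5.67 and -6.48 to -4.35. Names ending in _s_at or _x_at mark probe sets that can bind several transcripts. The value 0.01 in KO_541L is the lowest ratio in the file, which holds 4 such values, all in KO_541L and 3 of them on member probe sets. Whether 0.01 is a floor set in processing is not given in the sources used here, and the KO means that hold it may be too high for that reason. Without those values the falls were 71.8-fold and 32.9-fold. With quantile normalization the log2 values were -4.8 and -3.96, both called.

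At E14.5 Zg16 was not lower. The ratios of the KO on 1428359_s_at were 1.19, 1.35, 1.28 and 1.38 in KO_540C, KO_540G, KO_615A and KO_615B, against 0.947 and 1.05 in the wildtype, and on 1434137_x_at they were 1.35, 1.47, 1.7 and 1.72 against 1.04 and 0.962. All 4 KO were above both wildtype pancreata on these probe sets, with limma adjusted p of 0.863 and 0.892, and on 1428358_at the groups overlapped, with KO ratios from 0.9 to 1.22. The difference between the days was -2.87, -6.63 and -6.04 on the log2 scale for the 3 probe sets in that order, with limma adjusted p of 0.0154, 4.06e-05 and 0.00548.

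Gp2, the membrane glycoprotein, had the smallest change of the genes that fell. Its ratios at E16.5 were 0.892 and 1.11 in the wildtype and 0.438, 0.519, 0.444 and 0.508 in the KO. The KO values lay close together, all below both wildtype values, and the fall was 2.09-fold (log2 -1.06, SE 0.16, limma adjusted p = 0.00768). The call was lost in 5 of 17 alternatives, among them leaving out WT_628G (limma adjusted p = 0.0599) and quantile normalization (log2 -0.746, limma adjusted p = 0.155). At E14.5 the KO ratios were 1.0, 1.4, 1.01 and 0.914, overlapping the wildtype at 1.03 and 0.966. The difference between the days, -1.16, was not called (limma adjusted p = 0.0692).

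Syncollin was measured on a pair of probe sets that differed in spread. On 1451228_a_at the E16.5 ratios were 0.768 and 1.23 in the wildtype and 0.0553, 0.0201, 0.0771 and 0.101 in the KO, a fall of 17.9-fold (log2 -4.17, SE 0.50, limma adjusted p = 0.00223). On 1434803_a_at, the probe set chosen by name, the KO ratios were 0.114, 0.0223, 0.171 and 0.261, a fall of 9.46-fold (log2 -3.24, SE 0.74, limma adjusted p = 0.0438). KO_541L was lowest and KO_591D highest on both, and no KO reached a wildtype value. The call on 1434803_a_at was lost in 11 of 17 alternatives, over which its adjusted p ran from 0.0125 to 0.41, and without KO_541L the fall was 5.67-fold. At E14.5 the KO ratios on 1451228_a_at were 0.848, 1.14, 1.39 and 0.737, on both sides of the wildtype at 1 and 0.999. The difference between the days was -4.16 on that probe set (limma adjusted p = 0.0365) and -3.22 on the other (limma adjusted p = 0.278). The call of the former was lost in 13 of 20 alternatives, over which the adjusted p ran from 0.00896 to 0.222. With quantile normalization the E16.5 values were -2.6, still called, and -1.98, not called (limma adjusted p = 0.146). The 250 bases before the annotated Sycn start (chr7:28540635-28540884 of GRCm38.p6, plus strand, from RefSeq) are shown because the gene was among the deepest of those that fell, with the letters of a searched motif in capitals, here TTCCCA, the reverse complement of TGGGAA, the core of the site read by Rbpj and Rbpjl:
Sycn: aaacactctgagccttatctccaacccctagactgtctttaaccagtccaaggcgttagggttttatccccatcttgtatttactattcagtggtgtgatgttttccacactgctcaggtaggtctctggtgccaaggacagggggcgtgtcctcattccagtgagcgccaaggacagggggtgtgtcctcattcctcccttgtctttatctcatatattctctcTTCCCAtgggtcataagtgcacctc

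Cuzd1 and Dmbt1, a granule membrane protein and a secreted glycoprotein, shared a wide gap between the wildtype pancreata. Cuzd1 stood at 0.349 and 1.65 in WT_622A and WT_628G at E16.5, and at 0.0735, 0.0533, 0.0738 and 0.0915 in the KO. Dmbt1 stood at 0.363 and 1.64, and at 0.109, 0.138, 0.121 and 0.171 in the KO. The KO values were below both wildtype values for each gene and closer to each other than the wildtype pair was. Cuzd1 fell 10.6-fold (log2 -3.4, SE 0.44, limma adjusted p = 0.00336) and Dmbt1 5.81-fold (log2 -2.54, SE 0.43, limma adjusted p = 0.0131). With quantile normalization the log2 values were -1.92 and -1.49, and neither was called (limma adjusted p of 0.656 and 0.816).

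The gap between the wildtype pancreata was 4.73-fold for Cuzd1, 4.51-fold for Dmbt1 and from 2.3-fold to 2.34-fold for Zg16, WT_622A being the lower each time. The median absolute log2 difference between this pair over all probe sets was 0.15, while those of Cuzd1 and Dmbt1 were 2.24 and 2.17. Which wildtype is left out therefore sets the size of these changes: without WT_628G Cuzd1 fell 4.87-fold, Dmbt1 2.73-fold and Zg16 on 1428358_at 4.47-fold, and without WT_622A the falls were 23.0-fold, 12.3-fold and 10.5-fold. On the other two Zg16 probe sets they moved by 1.53 and 1.52 times. Leaving out either wildtype also takes the gap between the pair out of the fit, so only the sizes are given here. The order of the wildtype pair was not shared by all members, since Reg1 was at 1.17 in WT_622A and 0.827 in WT_628G.

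At E14.5 Cuzd1 was at 1.0, 1.02, 0.969 and 0.884 in the KO against 0.898 and 1.1, and Dmbt1 at 0.822, 1.19, 1.1 and 1.13 against 0.939 and 1.06. Both groups overlapped, with limma adjusted p of 0.995 and 0.991. The difference between the days was -3.36 for Cuzd1 (limma adjusted p = 0.0485) and -2.61 for Dmbt1 (limma adjusted p = 0.123). The call for Cuzd1 was lost in 14 of 20 alternatives, over which the adjusted p ran from 0.000227 to 1. The bases before the Cuzd1 start (chr7:131322293-131322542 of GRCm38.p6, minus strand, from RefSeq) are shown because it was the only one of the 8 members with a promoter at hand that held the E-box CAGCTG, a form bound by the acinar bHLH factor Bhlha15, in capitals:
Cuzd1: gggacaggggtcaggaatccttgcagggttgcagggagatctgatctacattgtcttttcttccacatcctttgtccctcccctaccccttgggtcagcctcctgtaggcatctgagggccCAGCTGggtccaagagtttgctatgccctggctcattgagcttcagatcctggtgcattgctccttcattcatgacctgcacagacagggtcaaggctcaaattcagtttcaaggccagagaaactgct

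Rnase1, the secreted ribonuclease, was the member with the highest KO mean at E14.5. At E14.5 its ratios were 2.15, 1.61, 2.71 and 2.38 in the KO and 1.02 and 0.983 in the wildtype, and at E16.5 they were 0.056, 0.01, 0.106 and 0.16 in the KO and 0.81 and 1.19 in the wildtype. All 4 KO were above both wildtype pancreata on the earlier day and below both on the later. The E14.5 mean of 2.21 ± 0.465 (SD, n = 4) ranked 77 among the highest log2 fold changes of 45037 probe sets, but it was not called (log2 1.12, SE 0.80, limma adjusted p = 0.87). The 95% interval of this effect ran from -0.62 to 2.86. Its SE comes from 1 spread shared by both days, so the wide KO values of E16.5 enter it. With the E14.5 arrays fitted alone the effect was not called either (limma adjusted p = 0.26).

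At E16.5 Rnase1 fell 17.7-fold (log2 -4.14, SE 0.80, limma adjusted p = 0.0232). The spread of the KO was wide and rested on KO_541L, at the lowest ratio of the file: without that pancreas the fall was 9.96-fold. With quantile normalization the log2 value was -2.8 and not called (limma adjusted p = 0.0808). The call was also lost without KO_541J (limma adjusted p = 0.0592), without WT_628G (0.122) and without WT_622A (0.0869). The difference between the days was -5.26 and was not called (limma adjusted p = 0.0936). It was -4.44 and called (limma adjusted p = 0.0074) when values at the lowest ratio were left out. The bases before the Rnase1 start (chr14:51146768-51147017 of GRCm38.p6, minus strand, from RefSeq) are shown because all 4 KO lay above the wildtype at E14.5 and below it at E16.5, as on the Zg16 probe sets 1428359_s_at and 1434137_x_at. The capitals mark TGGGAA and a match to TTCNNNGAA, the form of a Stat site:
Rnase1: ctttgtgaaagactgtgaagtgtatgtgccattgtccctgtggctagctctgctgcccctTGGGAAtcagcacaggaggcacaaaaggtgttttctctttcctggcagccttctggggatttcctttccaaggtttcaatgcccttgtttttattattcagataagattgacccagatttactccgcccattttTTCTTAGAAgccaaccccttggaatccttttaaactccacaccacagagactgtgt

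**Figure D2:**
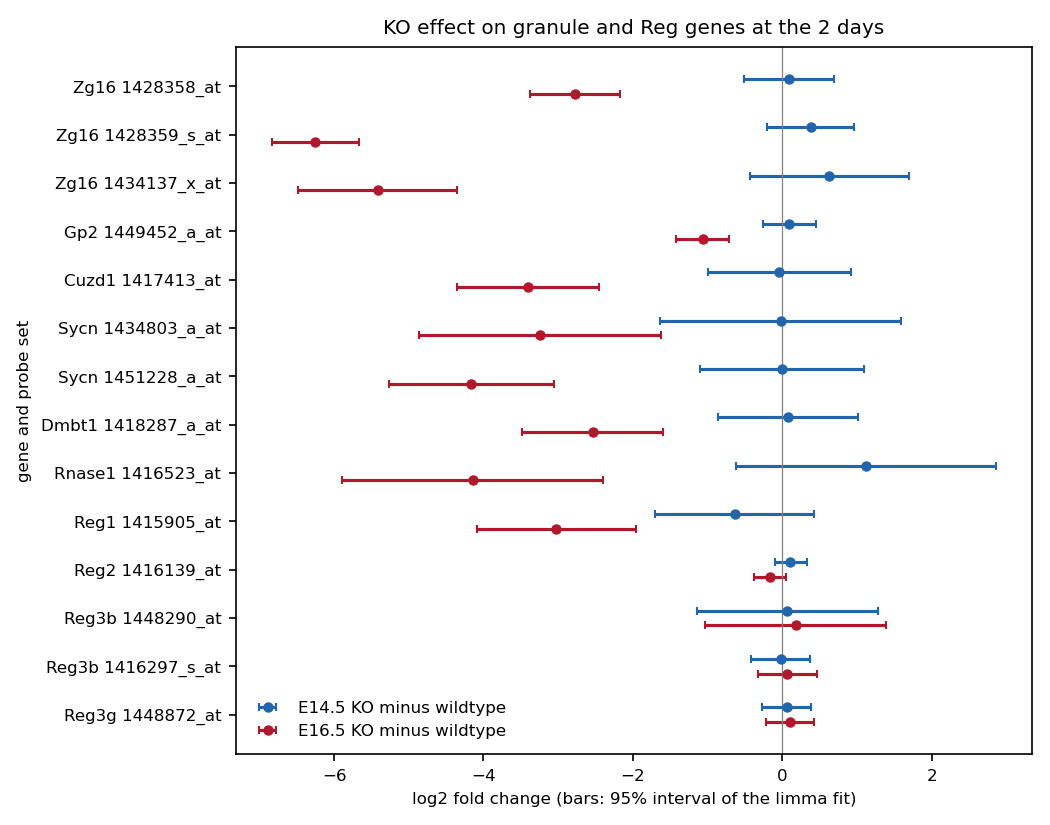
Log2 fold change of the KO against wildtype for each member probe set (points, 4 KO and 2 wildtype pancreata per day) with the 95% interval of the limma fit (bars), E14.5 in blue and E16.5 in red. The E14.5 intervals all hold 0, and at E16.5 those of Reg2, Reg3b and Reg3g hold it. Each probe set has 1 spread estimate for both days, so its bars are equally wide on the days.

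Of the Reg genes, Reg1 at E16.5 was at 1.17 and 0.827 in the wildtype and at 0.0692, 0.0763, 0.132 and 0.307 in the KO. The KO were all below both wildtype values, with KO_591D the highest, and Reg1 fell 8.14-fold (log2 -3.03, SE 0.49, limma adjusted p = 0.0103). Without WT_622A the value was 6.84-fold and no longer called (limma adjusted p = 0.078). With quantile normalization the log2 value was -1.85 and still called (limma adjusted p = 0.0473).

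At E14.5, where 8.06% of all probe sets had all 4 KO below both wildtype pancreata, 1 of the 14 member probe sets did, that of Reg1. This is near the share over all probe sets. The KO ratios of Reg1 there were 0.675, 0.806, 0.769 and 0.414, and the wildtype ratios both rounded to 1.0. The mean of 0.666 ± 0.177 (SD, n = 4) was not called (log2 -0.63, SE 0.49, limma adjusted p = 0.894), and neither was the difference between the days, -2.39 (limma adjusted p = 0.214).

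Reg2, the next gene along the chromosome and also made by acinar cells, was close to the wildtype mean. Its E16.5 ratios were 0.993 and 1.01 in the wildtype and 0.933, 0.887, 0.832 and 0.923 in the KO. The KO were all slightly below the wildtype pair, and the log2 fold change of -0.16 (SE 0.10) was not called (limma adjusted p = 0.461). Its 95% interval of -0.38 to 0.05 does not reach the interval of Reg1, -4.09 to -1.96. Both genes are shown over the 250 bases before their starts, since they are neighbours with different values, Reg1 at chr6:78425733-78425982 and Reg2 at chr6:78404905-78405154 of GRCm38.p6, plus strand, from RefSeq. Capitals mark TGGGAA or its reverse complement TTCCCA in both, the TATA box TATAAA in both, and in Reg2 the E-box CACCTG, a form bound by Ptf1a with its partners, and CTTTGAT, a form of the site of Tcf and Lef factors:
Reg1: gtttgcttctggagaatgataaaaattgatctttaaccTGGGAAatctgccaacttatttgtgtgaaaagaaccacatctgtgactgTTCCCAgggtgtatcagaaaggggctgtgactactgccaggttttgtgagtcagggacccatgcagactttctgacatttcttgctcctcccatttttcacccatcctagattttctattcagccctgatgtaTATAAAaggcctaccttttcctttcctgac
Reg2: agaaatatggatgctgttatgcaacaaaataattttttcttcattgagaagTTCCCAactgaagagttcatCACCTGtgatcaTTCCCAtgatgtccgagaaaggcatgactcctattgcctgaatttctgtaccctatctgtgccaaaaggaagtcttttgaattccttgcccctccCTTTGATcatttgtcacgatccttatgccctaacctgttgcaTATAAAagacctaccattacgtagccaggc

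Reg3b at E16.5 stood out for a single embryo. On 1448290_at the ratios were 0.72 and 1.28 in the wildtype and 0.759, 0.691, 0.755 and 3.54 in the KO, and on 1416297_s_at they were 1.01 and 0.987, and 0.864, 0.941, 0.996 and 1.49. KO_591D was the highest on both probe sets, and the other three KO were within or below the wildtype pair. Neither was called, at log2 0.18 (95% interval -1.03 to 1.39, limma adjusted p = 0.93) and 0.07 (95% interval -0.33 to 0.47, limma adjusted p = 0.919). Without KO_591D the values were -0.386 and -0.102.

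Reg3g followed the same embryo. Its E16.5 ratios were 1.02 and 0.976 in the wildtype and 1.0, 1.01, 0.966 and 1.36 in the KO, KO_591D again being the highest. The log2 fold change was 0.1 (95% interval -0.22 to 0.43, limma adjusted p = 0.823). At E14.5 the KO ratios of Reg3g ran from 0.908 to 1.21, and those of Reg3b on 1448290_at were 0.749, 1.4, 1.17 and 0.98, with KO_540G the highest of each. Ratio changes as deep as that of Reg1 lie outside the intervals of these probe sets for Reg2, Reg3b and Reg3g. This does not show that the genes were unchanged. Signal over background could not be given, so whether these probe sets could have shown a deep fall is not known.

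Reg1 was also set against the mean log2 ratio of Reg2, Reg3b and Reg3g within each pancreas, so that anything that moves all Reg probe sets of an array alike drops out. At E16.5 this difference was 0.38 and -0.38 in the wildtype and -3.69, -3.48, -2.68 and -2.42 in the KO, a gap of -3.07. At E14.5 it was 0 in both wildtype pancreata as rounded and -0.42, -0.66, -0.52 and -1.25 in the KO, a gap of -0.71. The groups did not overlap on either day, as was already so for Reg1 alone. Reg1 was called at E16.5 and the genes it was set against were not. The gaps therefore largely restate the values of Reg1 and are no separate result. An exact two-sided permutation test of 2 against 4 pancreata cannot go below 0.133, so these gaps are given as values with no test.

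The Reg genes lie in a row on chromosome 6, in the order Reg3b, Reg3d, Reg3a, Reg2, Reg1 and Reg3g among protein-coding genes, with a pseudogene between the last pair. Reg3d and Reg3a, lectin genes that are not members, were taken with them as relatives, and Reg3a is named for its place in the row. Reg3d fell to 0.406 ± 0.125 (SD, n = 4, log2 -1.27, SE 0.27, limma adjusted p = 0.0323), with KO ratios of 0.319, 0.352, 0.36 and 0.591 below a wildtype pair of 0.684 and 1.32. Reg3a had a log2 fold change of -0.02 (limma adjusted p = 0.979). Along the row the E16.5 log2 fold changes were therefore 0.18, -1.27, -0.02, -0.16, -3.03 and 0.1, so that the genes called were not next to each other. The Reg transcripts are related in sequence, and the probe sets with several symbols were not named here.

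**Figure D3:**
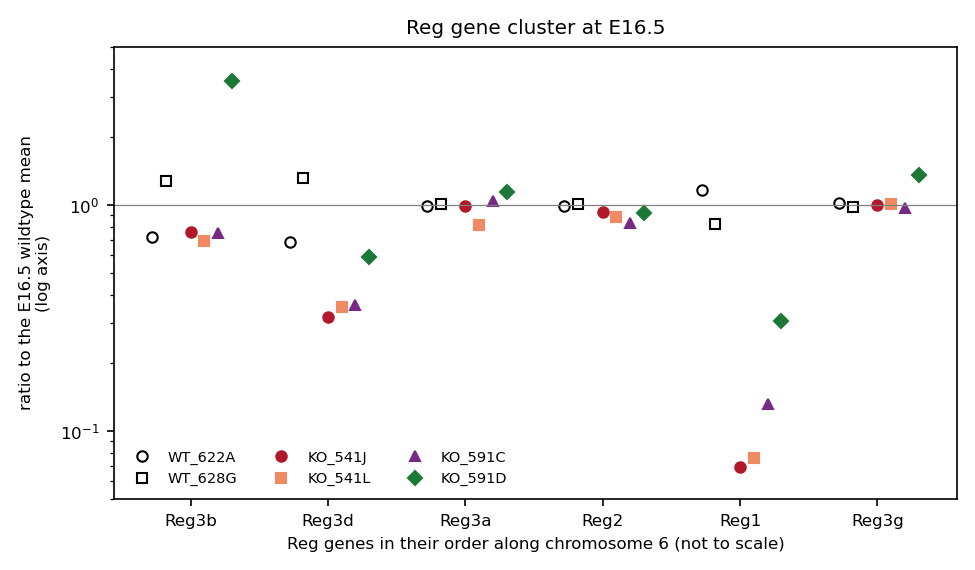
Ratio to the E16.5 wildtype mean (log axis) of the 6 protein-coding Reg genes in their order along chromosome 6, spacing not to scale, wildtype as open symbols and KO as filled ones, 1 probe set per gene. Reg1 and Reg3d have all 4 KO below both wildtype pancreata with a call, and KO_591D is the highest KO for Reg3b at 3.54 and Reg3g at 1.36.

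Of the other members, Sycn, Gp2, Zg16, Dmbt1 and Cuzd1 are all on chromosome 7 and Rnase1 is on chromosome 14. The 5 on chromosome 7 and Rnase1 were all called lower at E16.5, as were 1.82% of all probe sets. Of the 4 Reg members on chromosome 6 only Reg1 was called. Calls over all genes of a chromosome were not counted.

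Promoters of 8 of the 10 members were matched in the RefSeq table, all but Zg16 and Dmbt1, and the 250 bases before the start were searched on both strands beside 32851 such windows of all genes. TGGGAA was present in 6 of the 8, once each in Gp2, Sycn and Rnase1 and more than once in Reg1, Reg2 and Reg3g, against 21.6% of all windows. It was thus found both before genes that fell and before genes that were not called. TATAAA was present in 5 of the 8, Gp2, Reg1, Reg2, Reg3b and Reg3g, against 12.4% of windows, and its last match began 30 bases before the start in Reg1 and Reg2. CACCTG was present in Reg2 and Reg3b (17.2% of windows), CAGCTG in Cuzd1 (13.0%), TTCNNNGAA in Rnase1 and Reg3b (7.02%), and CTTTGAT in Reg2 and Reg3g (3.21%). AAGGTCA, the core of the Nr5a2 site, was in none of the 8 and in 4.08% of windows. No overlap between matches occurred in the printed sequences. A match is a run of letters and no measured site.

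The KO pancreata of E16.5 kept an order over the members that fell. Over the 10 probe sets called, the median log2 ratio was -4.86 in KO_541L, -3.81 in KO_541J, -3.14 in KO_591C and -2.67 in KO_591D, and -0.55 and 0.39 in WT_622A and WT_628G. KO_541L was lowest on 6 of the 10 and KO_541J on the other 4, while KO_591D was highest on 8. KO_541L and KO_541J, with the lower medians, share the number in their array names, and so do KO_591C and KO_591D. What this number stands for is not known, and its part in the order was not tested. Single probe sets departed from this order, and KO_541L was the highest KO for Gp2. At E14.5 the same probe sets had KO medians between 0.01 and 0.32, and no KO was lowest on more than 5 of the 10.

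The members that fell were set beside other acinar lists. Of 19 measured granule enzymes, 18 were lower at E16.5 and 9 were called, all of them lower, and the list's median log2 fold change was -2.43. The 6 with the smallest p were Klk1, a kallikrein (0.043 ± 0.0161, SD, n = 4, limma adjusted p = 1.69e-05), the chymotrypsin-like Ctrl (0.104 ± 0.0261, limma adjusted p = 0.000591), the elastase Cela3b (0.117 ± 0.0614, limma adjusted p = 0.00199), the trypsinogens Prss2 (0.232 ± 0.0847, limma adjusted p = 0.0039) and Prss3 (0.0938 ± 0.0771, limma adjusted p = 0.00502), and the carboxypeptidase Cpb1 (0.21 ± 0.133, limma adjusted p = 0.0264). Trypsinogen genes are near copies of each other, so the values of their probe sets are uncertain. The medians of the granule enzymes in single KO pancreata were -3.86 in KO_541L, -3.13 in KO_541J, -1.87 in KO_591C and -1.41 in KO_591D. This order was that of the 10 member probe sets called, which hold 3 of Zg16 and 2 of Sycn. With 1 probe set per gene over all 10 members, KO_541J at -3.15 lay below KO_541L at -2.96.

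Of 22 measured genes of the granule membrane and of exocytosis, 16 were lower and 4 were called, all lower, and the median was -0.08. They were Tmed11 (0.0413 ± 0.0329, SD, n = 4, limma adjusted p = 0.00325), a cargo receptor of the p24 family, and the secretory Rab GTPases Rab3d (0.318 ± 0.114, limma adjusted p = 0.00532), Rab27b (0.309 ± 0.0989, limma adjusted p = 0.0178) and Rab26 (0.302 ± 0.138, limma adjusted p = 0.0184). The SNARE genes of the list were not among the calls. Of 9 acinar transcription factors, 6 were lower and 3 were called, all lower, with a median of -0.93: Foxa3 (0.285 ± 0.0537, limma adjusted p = 0.00475), the acinar partner of Ptf1a, Rbpjl (0.465 ± 0.117, limma adjusted p = 0.015) and Gata4 (0.376 ± 0.12, limma adjusted p = 0.0458). None of the genes of these lists was called at E14.5.

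Of 11 relatives of the members, 8 were lower and 2 were called, Reg3d and Ang. Ang, a ribonuclease of the family of Rnase1, was at 0.216, 0.21, 0.215 and 0.292 in the KO and at 0.732 and 1.27 in the wildtype, the groups apart and the KO close together (log2 -2.06, SE 0.19, limma adjusted p = 0.000507). Its E14.5 mean was 1.04 ± 0.0553 (SD, n = 4). Of 16 genes of cytokine signaling known to induce Reg3 genes, 6 were lower and 10 higher, with a median log2 fold change of 0.06. Only 1 was called, the receptor chain Il10rb, which was lower (0.597 ± 0.092, SD, n = 4, limma adjusted p = 0.0243). The list's median log2 ratio in KO_591D, the pancreas with high Reg3b, was 0.09, and it ran from -0.05 to 0.05 in the other KO.

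**Figure D4:**
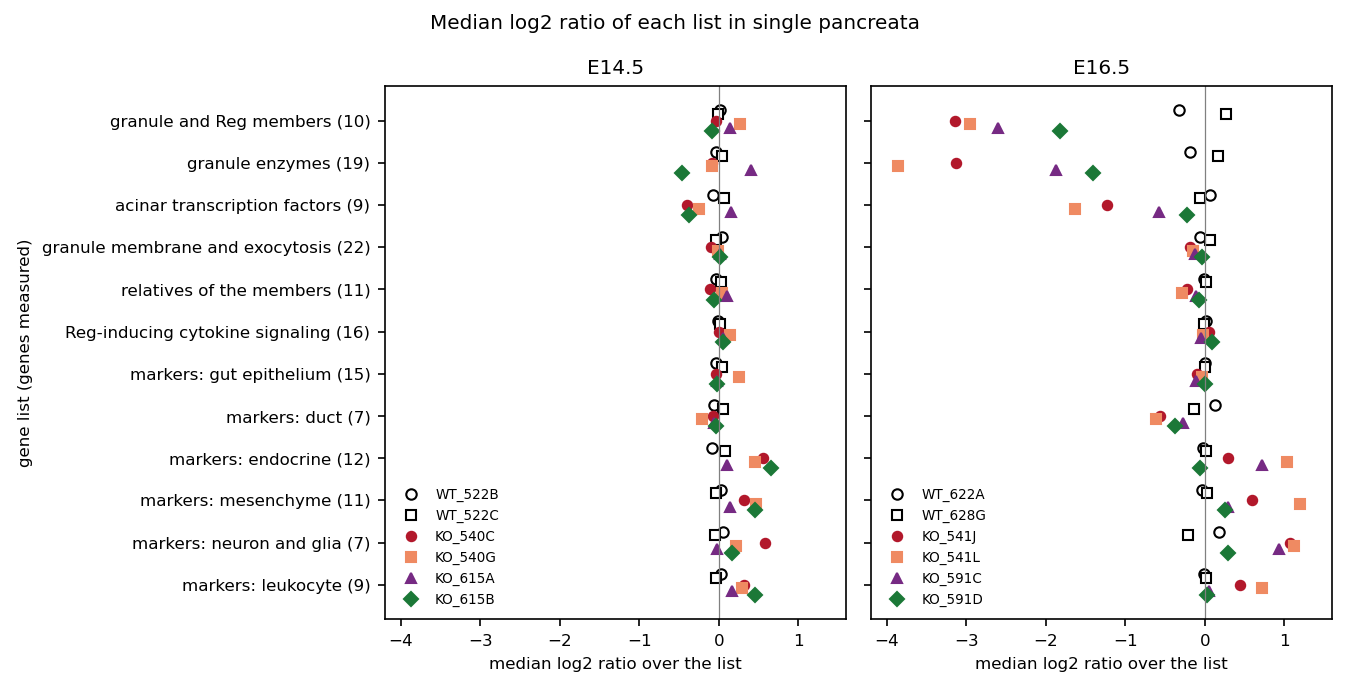
Median log2 ratio over each gene list in single pancreata (1 probe set per gene, the number of genes measured in brackets), E14.5 on the left and E16.5 on the right, wildtype as open symbols and KO as filled ones. At E16.5 the medians of the members and of the granule enzymes lie far to the left in all 4 KO, between -3.15 and -1.82 for the members, and those of mesenchyme markers lie to the right, between 0.25 and 1.2.

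Markers of other cells moved in the same arrays, and their part in the members' values was not tested. At E16.5 the list medians in the 4 KO ran from 0.25 to 1.2 for 11 mesenchyme markers, of which Lum (2.88 ± 0.7, SD, n = 4, limma adjusted p = 0.016) and Col3a1 (2.15 ± 0.671, limma adjusted p = 0.0488) rose. They ran from 0.29 to 1.12 for 7 markers of neurons and glia, of which Elavl4 (1.88 ± 0.383, limma adjusted p = 0.0412) and Nefl (10.2 ± 9.02, limma adjusted p = 0.0488) rose, from 0.03 to 0.72 for 9 leukocyte markers, of which Csf1r (2.39 ± 0.776, limma adjusted p = 0.0383) rose, and from -0.06 to 1.03 for 12 endocrine markers, none called, of which Chgb was furthest from 0 (2.17 ± 0.801, limma adjusted p = 0.0714). No marker of mast cells, endothelium or erythroid cells was called, and those furthest from 0 were Cpa3 (1.96 ± 1.17, limma adjusted p = 0.36), Cldn5 (1.66 ± 0.607, limma adjusted p = 0.393) and Hbb-y (1.5 ± 0.464, limma adjusted p = 0.4). KO_541L had the highest median of the mesenchyme, neuron and glia, leukocyte and endocrine lists and the lowest over the 10 member probe sets called. Of 7 duct markers 5 were lower, and Muc1, a mucin that acinar cells also express, fell (0.311 ± 0.116, limma adjusted p = 0.0269).

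Organs next to the pancreas that express Reg3b, Reg3g or Dmbt1 were checked through their markers. Of 15 gut epithelium markers 10 were lower at E16.5, with medians in the KO from -0.11 to 0, and Vil1 fell (0.43 ± 0.077, SD, n = 4, limma adjusted p = 0.00356). Of 9 stomach markers 4 were lower, with KO medians from -0.03 to 0.07, and Tff2 fell (0.625 ± 0.0617, limma adjusted p = 0.016). Of 9 liver markers 5 were lower, with KO medians from -0.19 to 0.16, and Hnf4a, also a gene of pancreatic epithelium, fell (0.444 ± 0.0676, limma adjusted p = 0.00768). In KO_591D the medians were 0 for gut, 0.07 for stomach and 0.03 for leukocyte markers. The 4 measured acinar markers, all of them also in the granule enzyme list, were lower at E16.5 (median log2 -2.03), Prss2 with a call. They add no separate result, and lower ratios do not show whether the tissue was acinar. Since the values are ratios, no marker's absence could be read from them.

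The targeted gene, Ctnnb1, has 3 probe sets, with KO ratios of 0.845 to 0.956, 1.11 to 1.31 and 0.701 to 0.955 at E14.5 and 0.862 to 1.04, 0.662 to 0.709 and 0.62 to 0.995 at E16.5. None was called (limma adjusted p of 0.152 to 0.92). Whether they lie in the deleted exons was not established, and cells other than the epithelium keep the gene, so they do not check the labels.

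The genes nearest to each member over the 8 KO pancreata were found by the root mean square difference of log2 ratios, with 1 probe set per gene. Zg16, on 1428358_at, and Dmbt1 were nearest to each other, at 0.2. The Zg16 probe sets 1428359_s_at and 1434137_x_at, with E16.5 log2 fold changes of -6.25 and -5.41, did not enter these distances. The genes near Zg16 therefore hold for 1428358_at only. The genes that follow were sought outside the members. Ctrl was the nearest gene of Zg16, Cuzd1 and Dmbt1, at 0.36, 0.39 and 0.39. Reg1 was nearest to 1810053B23Rik at 0.45 and to colipase, Clps, at 0.53. Rnase1 was nearest to the pancreatic disulfide isomerase Pdia2 at 0.54, whose KO mean was also above 1 at E14.5, at 2.3, and low at E16.5, at 0.135, and next to Cela2a at 0.81. Gp2 was nearest to Klk1b5 at 0.13 and Sycn to the water channel Aqp8 at 0.57. For Reg2 and Reg3g the nearest genes, Smad3 at 0.04 and Oscar at 0.05, only share values close to 1, and Reg3b had Slc22a29 at 0.4. A small distance is a description of these 8 pancreata.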

How the data were processed

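Total RNA from single embryonic pancreata was amplified in 2 rounds and hybridized to MOE430 2.0 arrays. RMA values were made in GeneSpring, and the authors then expressed each signal relative to its wildtype average on that day. The deposited values are thus linear ratios, and those of the 2 wildtype arrays add up to 2 within 3e-07. The series text gives the earlier day as E14.6 where the array names give E14.5, which is used here. Amplification and the division limit what a ratio shows: low ratios can sit at the file's lowest value, 0.01. The number of arrays limits the precision.

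Control probe sets (64) were set aside. A model of 4 groups, leaving 8 residual degrees of freedom, was fitted to log2 ratios of the other 45037 (limma 3.58.1, R 4.3.3). The tests were KO against wildtype on each day and the difference between these effects, adjusted by Benjamini-Hochberg over all probe sets with 0.05 as the limit. The fit was tested on simulated data. A gene with several probe sets was represented by the name ending in _at, then _a_at, then _s_at or _x_at, with the lowest number. All members were named. From other lists the genes called were named, at most 6 by smallest p, and where none was called the gene furthest from 0 at E16.5. Reg3a was named for its place in the Reg row, the targeted gene as a check, and other genes as the nearest to a member. The members and lists were chosen with earlier results of these data known. Sequences and gene order come from RefSeq tables of GRCm38.p6. The following were tried instead: each day alone, a trended and robust variance, quantile normalization, median centring, array weights, the number in the array name as a random block (statmod 1.5.0), ratios without log, the methods' t-test, probe set choices and filters, and leaving out each pancreas. Leaving out values at the lowest ratio was added after the data were seen. Figures used matplotlib 3.10.9.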

Additional observations from a re-analysis of the deposited data

Results flagged for a closer look

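KO_591D stood apart from the other three KO pancreata of E16.5 for Reg3b on 1448290_at, where its gap to the nearest KO was 0.943 of the range of the 4, and for Reg3g, where it was 0.862. Both gaps were past Dixon's 95% critical value. These were 2 of 28 groups of 4 KO values examined, where chance gives 1.4, so the count is close to what chance gives. KO_591D was at 3.54 for Reg3b and 1.36 for Reg3g, and without it the log2 fold changes were -0.386 and -0.0089.

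The KO effect differed between the days by limma's test of the difference for 5 probe sets. The effect at E16.5 minus that at E14.5 was -2.87 on 1428358_at, -6.63 on 1428359_s_at and -6.04 on 1434137_x_at for Zg16, -3.36 for Cuzd1 and -4.16 on 1451228_a_at for Sycn. Wildtype arrays of the 2 days set the ratio on each day separately, so these are differences between effects and not a course of expression. For Rnase1, where every KO was above the wildtype at E14.5 and below it at E16.5, the difference of -5.26 did not pass (limma adjusted p = 0.0936).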

How the results depend on the processing

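The number of member probe sets called at E16.5, 10, stayed at 10 with array weights, with the number in the array name as a random block (correlation -0.0876) and with values at the lowest ratio left out, and was 9 with median centring. It was 1 with a trended and robust variance, 4 with E16.5 fitted alone, 4 with quantile normalization and 5 on ratios without log. By the methods' t-test after adjustment, run without the study's filter by fold, it was 0. Over all probe sets these settings called 86, 159, 71, 462 and 0 where the fit reported called 1182, and the cause was not tested. Without each pancreas in turn the count ran from 7 to 10. At E14.5 the count was 0 throughout, other than 3 by the methods' t-test without adjustment, and ran from 0 to 0 without each pancreas. For the difference between the days the count of 5 was 0 with a trended and robust variance and with quantile normalization, 8 with array weights, 1 on ratios without log and 2 without probe sets ending in _x_at or _s_at, which removes a pair of the 5 by construction. Without each pancreas it ran from 1 to 7: it was 1 without WT_522B or WT_522C and 3 without KO_540C, KO_615A, KO_615B, KO_541J or KO_591C. All 10 probe sets called at E16.5 kept a negative sign in every alternative run on them.

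Signs turned for the following log2 fold changes, none of which was called. With array weights Gp2 at E14.5 was -0.00419, Reg3b -0.00639 and, on 1416297_s_at, 0.0167, and Reg3g -0.000331. Reg3b with array weights was -0.186 and -0.0498 at E16.5 and -0.18 and -0.0665 for the difference. At E14.5 the Sycn probe sets 1434803_a_at and 1451228_a_at were 0.0606 and 0.0234 with quantile normalization and 0.035 and 0.0292 without log, and Reg3b on 1416297_s_at was 0.0108 with quantile normalization. Without each pancreas, the E14.5 values ran from -0.0364 to 0.169 for Gp2, -0.188 to 0.107 for Cuzd1, -0.244 to 0.215 and -0.163 to 0.143 for Sycn, -0.0122 to 0.194 for Dmbt1, -0.0732 to 0.229 and -0.075 to 0.04 for Reg3b and -0.0179 to 0.121 for Reg3g. At E16.5 they ran from -0.386 to 0.596 and -0.102 to 0.16 for Reg3b and -0.0089 to 0.155 for Reg3g, and for the difference from -0.454 to 0.529, -0.0772 to 0.185 and -0.0647 to 0.122.

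No paired analysis was possible because the array names carry no number that links a KO to a wildtype pancreas. Leaving out a wildtype pancreas leaves 1 on that day, which is then assumed to vary like the other groups. With ratios only, signal over background could not be given.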
